A study of Arabidopsis thaliana with 8 samples.

Results

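Convergent gene ends are places where neighbouring genes on opposite strands point toward each other, so that their 3′ ends meet. They were taken as adjacent protein-coding genes whose ends lay at most 500 bp apart or overlapped by at most 500 bp, and 4140 such pairs were found among 11462 adjacent pairs within these limits. Their 8280 gene ends made up part of the 27444 protein-coding gene ends of the 5 nuclear chromosomes. Each pair was described over a window from 500 bp inside one gene's end to 500 bp inside the other's. The comparison group was 5508 tandem pairs, in which the neighbour beyond the 3′ end lay on the same strand within the same limits. A further group of 8878 isolated ends had no protein-coding gene in the next 1000 bp.

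The data were lists of enriched regions from chromatin immunoprecipitation and sequencing (ChIP-seq), in which an antibody pulls down the DNA bound to one histone form. There were 6 lists, each from 1 library. H3K4me1 and H3K4me3 stand for single and triple methylation of histone H3 on lysine 4, H3K27ac and H3K27me3 for acetylation and triple methylation on its lysine 27; H2A.Z is a variant histone that replaces H2A, and H3 was the remaining target. All 8 samples, 2 inputs included, were nuclei of Arabidopsis thaliana Col-0 root non-hair cells, harvested 10 days after germination from fully differentiated root. The line carried the tagging protein NTF under the GLABRA2 promoter and biotin ligase as ACT2p:BirA, which lets tagged nuclei be captured on streptavidin beads, and no sample was a contrasting genotype or treatment. The inputs, one of which belonged to H3K27me3, were not analysed here.

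At a convergent end, the transcription units of both genes stop close to or inside each other, and their transcripts can be partly complementary to each other (natural antisense transcripts). In plants H3K4me1 is known from the bodies of transcribed genes, and H3K4me3 and H3K27ac from the start of active genes. H3K27me3 is laid down by Polycomb repressive complex 2 over silent developmental genes, and H2A.Z lies near gene starts and over the bodies of genes that respond to conditions. A region list for H3 itself marks where the histone was recovered most densely.

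The space between convergent genes is short and rich in A and T. 4 spaces are shown as examples, on the plus strand of TAIR10 (sequence from RefSeq TAIR10.1). Capitals mark AATAAA, the canonical polyadenylation signal of animals, found at part of plant gene ends, or its reverse complement TTTATT. The first 3 are crossed by the longest H3K4me1, H3K27me3 and H3 region, respectively, among spaces of 20 to 300 bp. Only windows touched by no other annotated gene were eligible for these 3. The last space lies in a window without any region. FHL, a nuclear import factor for phytochrome A, and AT5G02210 enclose chr5:439020-439252.
FHL/AT5G02210: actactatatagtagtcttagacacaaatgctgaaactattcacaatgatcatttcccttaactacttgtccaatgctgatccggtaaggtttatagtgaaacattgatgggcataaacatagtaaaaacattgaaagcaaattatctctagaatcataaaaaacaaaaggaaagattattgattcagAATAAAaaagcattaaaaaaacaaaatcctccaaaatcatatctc
AT2G23160, an F-box family gene, and GH3.3, which conjugates auxin to amino acids, enclose chr2:9863745-9863854.
AT2G23160/GH3.3: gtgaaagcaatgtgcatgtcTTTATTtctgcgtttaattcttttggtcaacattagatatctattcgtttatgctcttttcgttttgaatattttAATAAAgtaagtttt
AT5G56590, of the O-glycosyl hydrolase family 17, and PRF3, a profilin of the actin cytoskeleton, enclose chr5:22909708-22909881.
AT5G56590/PRF3: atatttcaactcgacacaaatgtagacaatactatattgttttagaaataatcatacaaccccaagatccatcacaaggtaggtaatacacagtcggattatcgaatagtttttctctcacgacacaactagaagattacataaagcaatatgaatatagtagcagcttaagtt
UBQ10, a polyubiquitin gene, and AGD13, an ARF-GAP domain gene, enclose chr4:2720309-2720492.
UBQ10/AGD13: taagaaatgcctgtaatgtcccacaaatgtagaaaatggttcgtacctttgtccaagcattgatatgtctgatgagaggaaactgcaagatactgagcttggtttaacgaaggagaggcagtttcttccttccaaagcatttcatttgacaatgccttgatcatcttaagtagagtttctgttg

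The spaces were 233, 110, 174 and 184 bp long with 70.8%, 72.7%, 67.8% and 60.9% A and T. The H3K4me1 region across the first was 1267 bp long and reached 999 bp into FHL and 35 bp into AT5G02210. The H3K27me3 region across the second measured 1978 bp, with 722 bp in AT2G23160 and 1146 bp in GH3.3. The H3 region across the third was the shortest of these at 468 bp, with 106 bp on the side of AT5G56590 and 188 bp on that of PRF3.

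Convergent genes ended much closer to each other than tandem genes did to their neighbours. Of the 4140 convergent pairs, 2096 (50.6%) overlapped, by a median of 70 bp, and 2044 lay apart, by a median of 126 bp. Only 7.55% of tandem pairs overlapped, and their median distance was 166 bp. The convergent window was 994 bp long at the median and the tandem window 1160 bp. The limit of 500 bp cut through a continuous range, since 2035 further convergent pairs lay farther apart and 242 overlapped by more. In the last 100 bp of distance inside the limit H3K27me3 covered 16.6% of gene ends, and in the next 100 bp outside it 19.9%, while for H3K4me1 the shares were 14.4% and 16.5%. On the side of overlaps, H3K4me1 covered 20.9% of ends in the last 100 bp inside the limit and 32.5% of 126 ends in the next 100 bp outside it. Another annotated gene, coding or not, touched 504 windows (12.2%).

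Over whole windows, convergent ends carried more H3K4me1 and H3 than tandem junctions and much less of the other targets. A window counted as covered when at least 100 bp of it lay under regions of a target. H3K4me1 covered 1340 of 4140 convergent windows (32.4%) against 24.5% of tandem windows, where 26% of all 11462 windows of adjacent pairs were covered. H3 covered 1004 windows (24.3%) against 19.9%, beside 21.3% of all. These were the targets with a higher share at convergent pairs.

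H3K27ac covered 1026 convergent windows (24.8%) against 64.5% of tandem windows, and 53.1% of all. H3K4me3 covered 280 (6.76%) against 31.8%, with 26.5% of all. H2A.Z covered 852 (20.6%) against 43.5%, with 37.4% of all, and H3K27me3 589 (14.2%) against 25.7%, with 23.2% of all. The tandem window holds the first 500 bp of the downstream gene. The convergent window holds a start of its pair only where a gene is shorter than 500 bp. These 4 differences thus include the marks of gene starts. The H3K4me1 and H3 differences also set windows with a start against windows mostly without one. Among genes of at least 1500 bp with tandem ends, H3K4me1 covered the first 500 bp of 7.21% and the last 500 bp of 17.3%. For H3 these shares were 9.13% and 9.73%.

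Gene ends were therefore compared over the last 500 bp of each gene, where the neighbour's start stays out except in the 7.55% of tandem pairs that overlap. H3K4me1 covered 1618 of 8280 convergent ends (19.5%; exact Clopper-Pearson 95% interval 18.7 to 20.4) and 16.4% of tandem ends, beside 14.9% of all 27444 gene ends. The difference was 3.16 percentage points (Newcombe 95% interval 1.86 to 4.45). It was 1.56 points (0.02 to 3.12) in pairs that do not overlap and 1.00 point (0.39 to 1.59) with only regions of at least 500 bp. At isolated ends the share was 9.59%. Convergent ends thus had the highest H3K4me1 share of the 3 classes in this library. Intervals cover counting error only. They are somewhat narrow, because overlapping genes share bases and facing ends are counted as independent. Among pairs lying apart, H3K4me1 covered both ends in 4.84%, against 3.20% from the product of the shares. The interval of 0.02 to 3.12 is thus too narrow as well. With 1 library per target there was no replicate, and no p-value is given.

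H3 differed by a like amount. It covered 1111 convergent ends (13.4%), 10.1% of tandem ends and 11.1% of isolated ends, with 11.6% of all ends. The difference from tandem ends was 3.31 points (2.21 to 4.38). Much of it lay in the shortest regions. With regions of the smallest size (211 bp for H3) left out it was 1.39 points (0.67 to 2.08), and with only regions of at least 500 bp 0.16 points (-0.03 to 0.33).

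H2A.Z showed the widest gap in the other direction, covering 973 convergent ends (11.8%), 17.5% of tandem ends and 19.0% of isolated ends, with 16.5% of all. The difference was -5.75 points (-6.98 to -4.54). H3K27ac covered 1167 convergent ends (14.1%), against 17.5% of tandem and 15.8% of isolated ends, with 16.2% of all, a difference of -3.37 points (-4.63 to -2.13). Both targets were thus less frequent where genes met than where a same-strand gene followed. With only regions of at least 500 bp these differences shrank to -0.63 points for H2A.Z and -0.44 for H3K27ac. In pairs that do not overlap they were -3.01 (-4.52 to -1.49) and -2.01 (-3.51 to -0.50).

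H3K27me3 differed most between isolated ends and the other 2 classes. It covered 748 convergent ends (9.03%), 11.9% of tandem ends and 25.3% of isolated ends, with 16.9% of all. The difference from tandem ends was -2.91 points (-3.98 to -1.87). It was -0.28 (-1.63 to 1.07) in pairs that do not overlap, and 0.23 (-1.21 to 1.67) with tandem ends weighted by distance. H3K4me3, a mark of starts, covered few ends of any class: 298 convergent ends (3.60%), 3.83% of tandem and 3.51% of isolated ends, with 3.84% of all. Its difference of -0.23 points (-0.89 to 0.40) was within counting error, but counting ends with at least 1 bp covered it was -0.98 (-1.77 to -0.21). For the other 5 targets the difference had the same direction on 5 of 5 chromosomes.

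**Figure D1:**
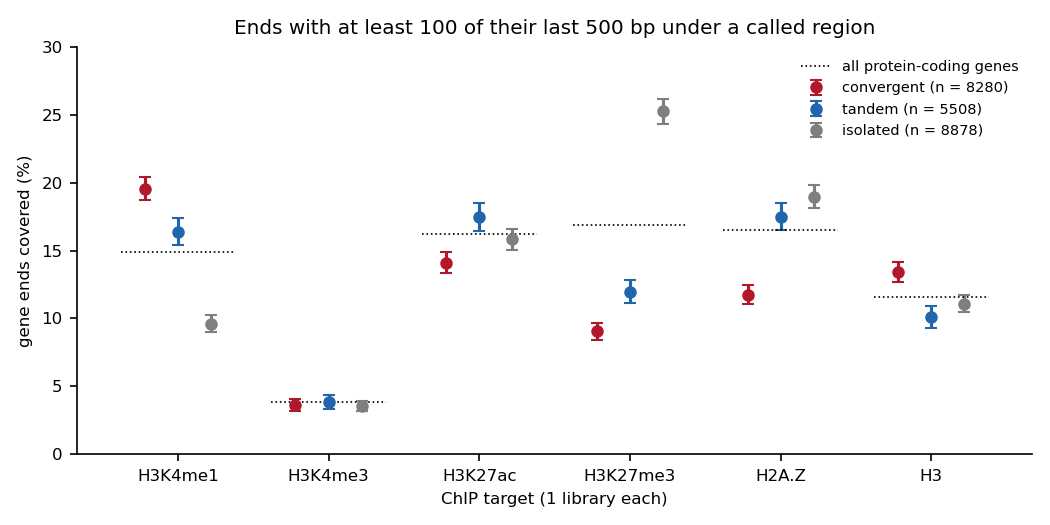
Percent of gene ends with at least 100 bp of their last 500 bp under regions of each target, for convergent (n = 8280), tandem (n = 5508) and isolated (n = 8878) ends; points are shares, error bars exact 95% binomial intervals, and dotted lines the share over all 27444 ends. Convergent ends are highest for H3K4me1 (19.5%) and H3 (13.4%) and lowest for H2A.Z (11.8%), H3K27ac (14.1%) and H3K27me3 (9.03%).

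Share of bases gave the same order of the 3 classes for H3K4me1, H3 and H2A.Z. H3K4me1 lay over 10.5% of the last 500 bp of convergent genes, 8.47% at tandem ends and 5.01% at isolated ends. H3 lay over 6.29%, 4.62% and 5.24%. H2A.Z lay over 5.38%, 8.31% and 9.24%, so its cover at convergent ends was the lowest of the classes.

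Starts and bodies differed less than ends for H3K4me1, H3K27ac, H2A.Z and H3. Bodies differed more than ends for H3K27me3, and slightly more for H3K4me3. Among genes of at least 1500 bp, 6137 had convergent and 4368 tandem ends. H3K4me1 covered the body of 70.9% and 70.7% of them, H3K27ac the start of 63.2% and 63.1%, and H3K4me3 the start of 35.8% and 35.6%. Bodies with H3K27me3 (28.3% and 32.8%) and H2A.Z (37.8% and 40.3%) were fewer among genes with convergent ends. Genes whose body carried H3K4me1 also had it at the end in 24.1% of convergent and 20.8% of tandem cases. Where the body had none, the shares were 13.3% and 8.76%. For H2A.Z, an end was covered in 15.4% of convergent and 24.7% of tandem genes with a covered body.

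In 50 bp bins along these genes, H3K4me1 was highest in the body, 28.7% of bases in the bin centred 975 bp inside the convergent end and 29.0% at the highest bin of the tandem class. It declined toward the end in each class but stopped at different levels. In the last bin it was 6.43% at convergent, 2.36% at tandem and 1.46% at isolated ends. Beyond the end, at 475 bp, it was again 16.1% at convergent ends, where the facing gene's body begins, 6.56% at tandem and 1.27% at isolated ends. H3 in the last bin stood at 4.35%, 2.03% and 2.54%. H3K4me1 thus fell steeply toward the convergent end, as in the other classes, but to a higher level there. The bins were not split by overlap. Over all gene lengths, 50.6% of convergent and 7.55% of tandem pairs overlapped, so the last bin can also lie inside the neighbouring gene.

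**Figure D2:**
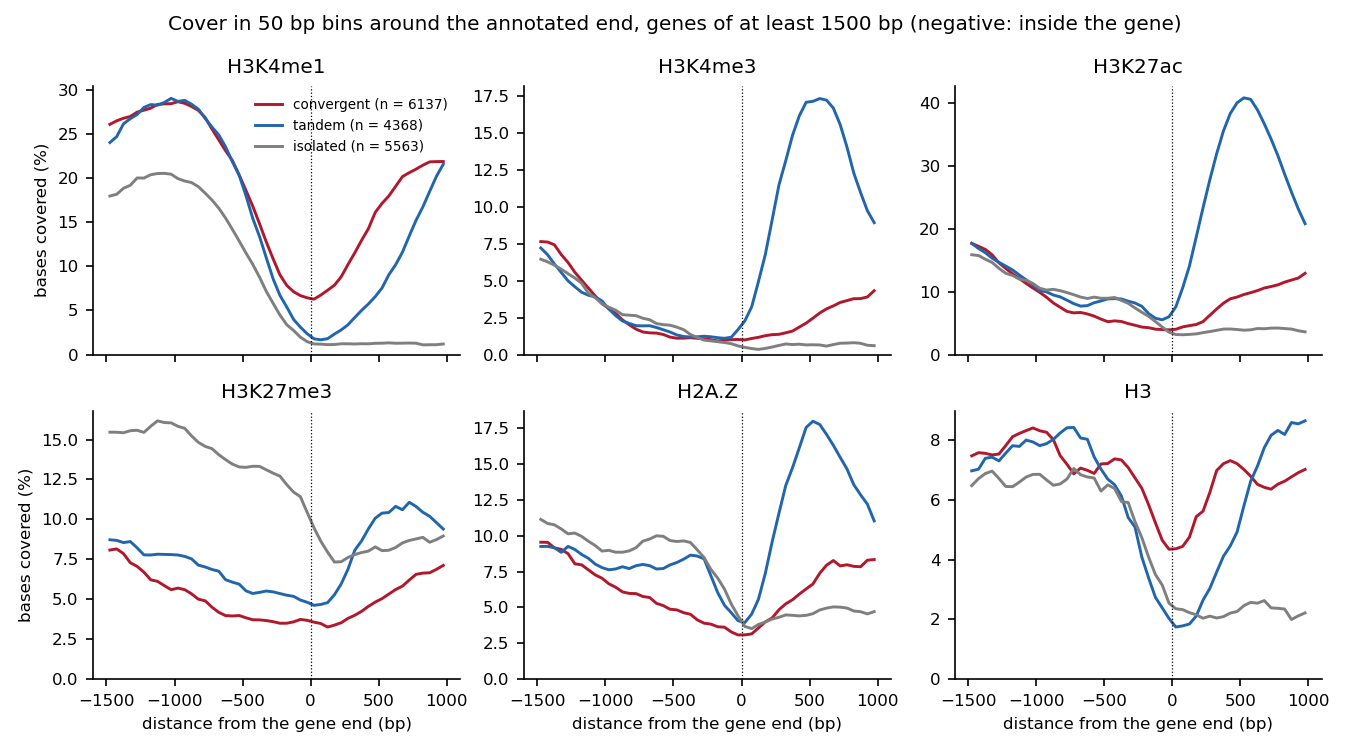
Percent of bases under regions of each target in 50 bp bins from 1500 bp inside to 1000 bp beyond the annotated gene end, for genes of at least 1500 bp with convergent, tandem or isolated ends. H3K4me1 falls to 6.43% in the last bin of convergent ends and 2.36% at tandem ends, while H3K27ac reaches 40.8% beyond tandem ends only, where the next gene starts.

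H3K27ac and H2A.Z fell toward the convergent end from the body and were lowest there, at 3.93% for H3K27ac and 3.08% for H2A.Z in the last bin inside. Beyond tandem ends both peaked 525 bp downstream, at 40.8% and 18.0%. H3K27me3 stood at 3.68% in the last bin at convergent, 4.81% at tandem and 10.4% at isolated ends.

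Distance between the ends changed the H3K27me3 comparison. Among convergent ends H3K27me3 covered 5.55% where genes overlapped by 1 to 200 bp, 9.42% where they lay up to 100 bp apart, 12.2% up to 250 bp and 16.5% beyond that. Tandem ends showed a like gradient, from 6.28% to 6.73%, 11.3% and 18.0%. With tandem ends weighted to the distances of convergent ends, the difference was 0.23 points (-1.21 to 1.67) in place of -2.91. Weighted in this way, the interval included 0. Among the single classes it lay above 0 for ends up to 100 bp apart, where the convergent share was higher by 2.69 points (0.83 to 4.53), and included 0 in the other 4.

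The other differences kept their direction under the same weighting. It gave 2.92 points for H3K4me1 (0.84 to 5.0), 4.44 for H3 (2.88 to 6.01), -6.04 for H3K27ac (-8.31 to -3.76) and -3.22 for H2A.Z (-5.03 to -1.41). Within single distance classes the H3K4me1 interval included 0 in each of the 5. The H3K27ac gap was -1.46 points (-4.14 to 1.28) at over 100 and up to 250 bp apart and -0.15 (-2.80 to 2.62) beyond that, and lay below 0 in the 3 closer classes. For H2A.Z the interval lay below 0 at overlaps of 1 to 200 bp and beyond 250 bp apart and included 0 in the other 3, with a value of 6.38 (-3.29 to 10.2) at the longest overlaps. The H3 interval lay above 0 at overlaps of 1 to 200 bp, where H3 covered 13.6% of convergent and 7.65% of tandem ends, and up to 250 bp apart. Only 50 tandem ends overlapped by more than 200 bp, which leaves that class imprecise.

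**Figure D3:**
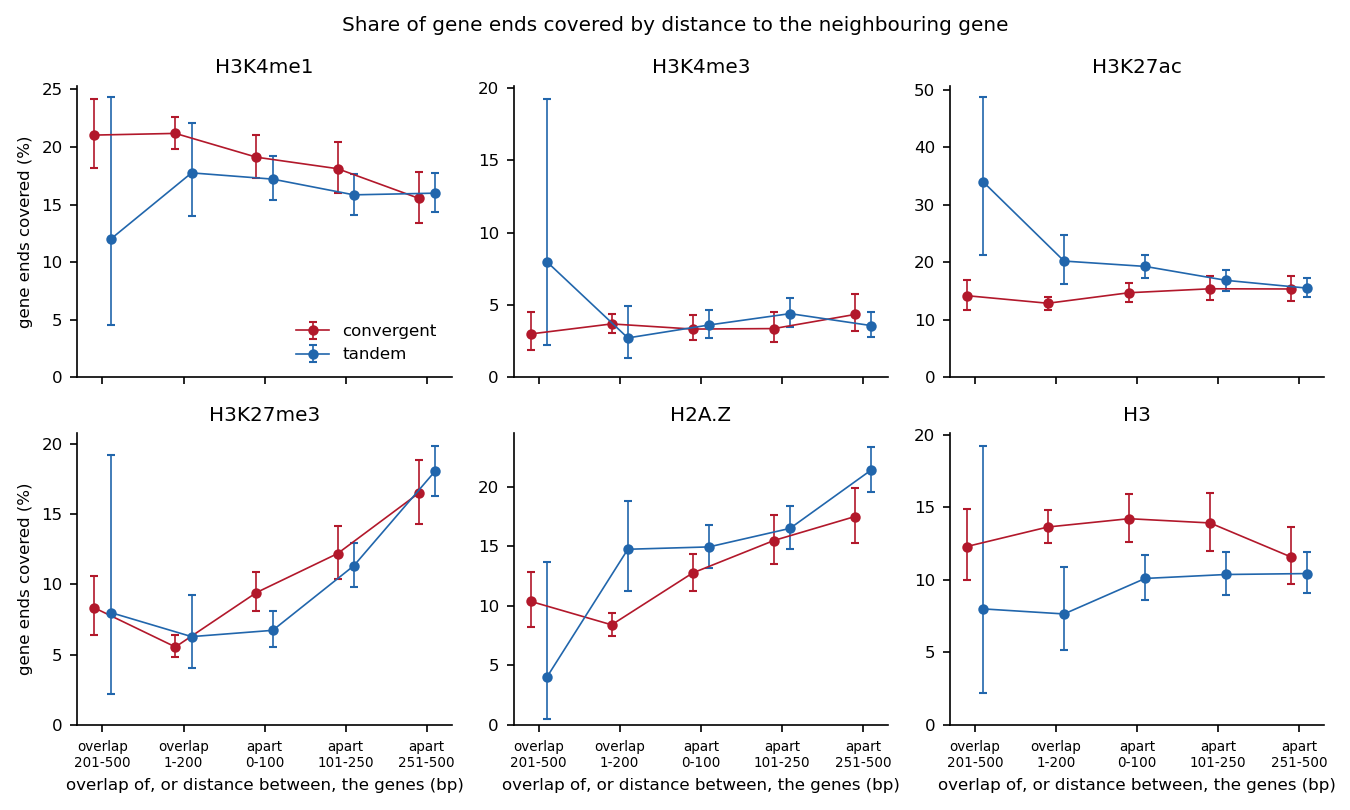
Percent of gene ends covered by each target in 5 classes of distance between neighbouring ends, for convergent and tandem ends, with exact 95% binomial intervals. H3K27me3 rises from 5.55% at overlaps of 1 to 200 bp to 16.5% at over 250 bp apart in convergent ends, alongside the tandem ends.

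The bases shared by overlapping convergent genes came to 236534 bp. H3K4me1 lay over 8.96% of them and 10.5% of the nuclear sequence, H3K27ac over 6.06% and 9.07%, and H3 over 5.62% and 4.99%. For H3K27me3 these shares were 4.22% and 8.84%, for H2A.Z 3.60% and 6.56%, and for H3K4me3 1.31% and 3.42%. Only H3 thus lay above its share of the nuclear sequence. In the gene ends beside these overlaps H3 lay over more, 6.46%. H3K27me3, at 3.08% there, was the only target with more cover in the shared bases than beside them. In the 34663 bp shared by tandem genes H3K4me1 lay over 5.36%, H3K27ac over 14.3% and H3 over 2.07%. H3K27me3 lay over 4.68% of these, H2A.Z over 4.51% and H3K4me3 over 3.51%. The spaces between convergent genes that lay apart, 336632 bp, had H3K4me1 over 4.15% and H3 over 3.62%, against 1.69% and 1.80% of tandem spaces. H3K27ac was lower in convergent spaces (3.85%) than in tandem ones (5.78%), and H3K27me3 alike (6.56% and 6.44%). H3K4me3 was lower in convergent spaces (0.762%) than in tandem ones (1.61%), and H2A.Z slightly higher (5.11% and 4.61%). Spaces thus differed in the same direction as gene ends for H3K4me1, H3 and H3K27ac, but not for H2A.Z. A tandem space also borders the start of the downstream gene, so its cover need not follow the 3′ end.

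By annotation, 43.1% of the bases in the last 500 bp of convergent genes were coding, 46.7% untranslated exon and 10.2% intron. H3K4me1 covered 12.9% of coding and 7.49% of untranslated bases, against 12.3% and 4.83% at tandem ends. For H3K4me1 the gap between convergent and tandem ends was thus wider in untranslated than in coding bases. For H2A.Z it was wider in coding bases, at 7.32% and 12.6%, than in untranslated ones, at 3.66% and 5.19%.

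Convergent ends were slightly less rich in A and T, with a median of 62.2% against 63.0% at tandem and isolated ends. Within each of 4 classes of A+T content, H3K4me1 and H3 were again higher, and H3K27ac, H3K27me3 and H2A.Z lower, at convergent than at tandem ends. The hexamer AATAAA stood in the last 50 bases of the gene strand in 9.32% of convergent, 10.9% of tandem and 9.77% of all ends. In the central 100 bases of spaces of at least that length, AATAAA on either strand was present in 20.4% of convergent, 27.6% of tandem and 26.9% of all spaces, and the median A+T content of these bases was 67% and 68% in convergent and tandem spaces. These matches describe letters only.

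At a small share of pairs a single region ran from one gene into the other. H3K4me1 regions crossed into both genes at 172 convergent pairs (4.15%) and 55 tandem pairs (0.999%). H3 regions did so at 94 (2.27%) and 27 (0.490%), of which 51 convergent ones had the smallest size. H3K27me3 bridged 108 convergent pairs (2.61%) and 132 tandem pairs (2.40%), alike within counting error. H3K27ac bridged 88 (2.13%) against 209 tandem pairs (3.79%). Bridging was thus more frequent at convergent than tandem pairs for H3K4me1 and H3. A region bridging a tandem pair reaches into the start of the downstream gene, and one bridging a convergent pair into another 3′ end. The shares therefore do not compare like parts of genes, and what this adds to the difference was not tested. Among pairs lying apart, where convergent spaces were shorter (median 126 bp against 186 bp), H3K4me1 crossed 3.57% of convergent and 0.825% of tandem spaces.

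Both ends of a pair carried H3K27me3 together more often than their separate shares would give. Among the 2044 pairs that lay apart, 96 had both ends covered (4.70%), against 1.47% from the product of the shares. An end facing an H3K27me3 end was itself covered in 38.8% of cases, against 12.1% of all these ends. Without bridged pairs, 60 of 1981 pairs (3.03%, product 1.00%) had both. For H3K4me1 99 pairs had both ends covered (4.84%, product 3.20%), and for H3 36 (1.76%, product 1.80%). Both ends were covered by H3K27ac in 3.57% (product 2.27%), by H2A.Z in 3.38% (2.19%) and by H3K4me3 in 0.245% (0.130%, only 5 pairs). H3 ends thus paired no more often than their shares give. H3K27me3 ends exceeded their product most, and ends with H3K4me1 or the other targets did so somewhat. Tandem 3′ ends, which lie a gene's length apart, were both covered by H3K27me3 in 15.0% of the pairs with any, and convergent ends in 24.1%.

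**Figure D4:**
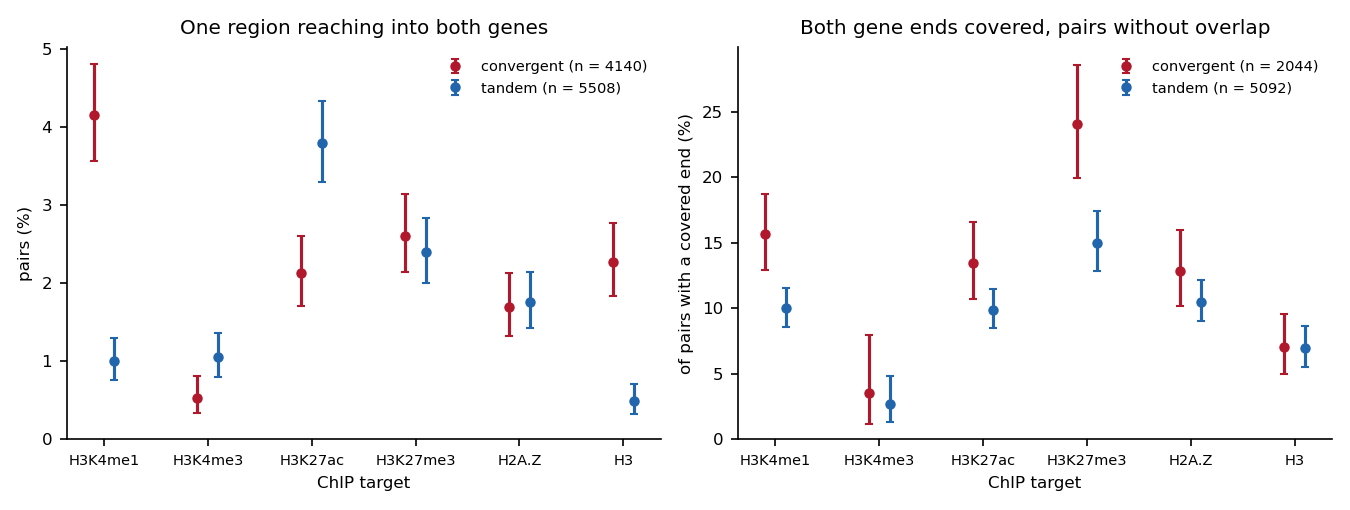
Left, percent of convergent and tandem pairs with a single region reaching into both genes; right, percent with both 3′ ends covered among pairs lying apart that have a covered end; points are shares for each target, with exact 95% binomial intervals. H3K4me1 regions bridge 4.15% of convergent and 0.999% of tandem pairs, and H3K27me3 covers both ends in 24.1% and 15.0%.

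Many convergent windows had little or no cover. No target reached 100 bp in 1370 of the 4140 windows (33.1%), against 12.1% of tandem windows, which hold a start. Of the rest, 1298 carried 1 target and 867 carried 2. H3K4me1 alone was the most frequent pattern, in 453 windows (10.9%), followed by H3K27ac alone in 270 (6.52%), H3K4me1 with H3 in 215 (5.19%) and H3 alone in 211.

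Some targets lay together. H3K4me1 was present in 52.1% of the H3 windows and 32.4% of all windows. H2A.Z was present in 41.4% of H3K27me3 windows and 20.6% of all. H3K4me3 windows held H3K27ac in 55.0% of cases, against 24.8% of all, and H3K27me3 windows held H3K4me1 in 25.8%, under its overall share. These directions were not particular to convergent windows. In tandem windows H3K4me1 was present in 41.0% of H3 windows and 24.5% of all, and H2A.Z in 53.3% of H3K27me3 windows and 43.5%. H3K27ac was present there in 88.0% of H3K4me3 windows and 64.5% of all, and H3K4me1 in 20.2% of H3K27me3 windows. The H3K4me1 comparison was repeated on ends with no H3 base, where it gave 15.2% of convergent and 12.7% of tandem ends, 2.50 points apart (1.22 to 3.76). Among ends with at least 100 bp of H3 the shares were 43.4% and 43.6%.

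Individual pairs show what these shares are made of. The windows with the most H3K4me1 were those of AT4G29870 and PIRL7, a leucine-rich repeat protein (1058 bp), of AT3G24330 and CHR40, a chromatin remodeller of the CLASSY family (998 bp), and of AT1G60460 and GolS4, a galactinol synthase (932 bp). At AT3G24330/CHR40 H3 and H2A.Z lay over all or nearly all of the last 500 bp of AT3G24330 as well, at 500 bp for H3 and 1 bp fewer for H2A.Z. The longest H3K4me1 region to bridge a pair ran for 2057 bp across ZAP1, a WRKY factor, and SCL21, a GRAS factor.

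H3K27me3 was greatest at GulLO7, of the gulonolactone oxidase family, with AT5G56480 (1243 bp), then at AT3G52690/AT3G52700 (1240 bp) and AT5G26080/AT5G26090 (1175 bp). In the first of these both gene ends were covered, by 500 and 443 bp. AT2G23160/GH3.3 had the longest bridging region, 1978 bp, and TET12, a tetraspanin, with AT5G23035 had one of 1477 bp. H3K27me3 thus could fill a whole convergent window from gene to gene.

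H2A.Z was greatest at AT1G68110/BPC3 (890 bp), where BPC3 is a GAGA-binding factor, and at OLEO1/AT4G25150 (875 bp), where OLEO1 coats seed oil bodies. The OLEO1 window also held 806 bp of H3K27me3. CAD9, of the cinnamyl alcohol dehydrogenase family, and EC1.4, an egg cell-secreted protein, followed with 844 bp. H3 was greatest at AT2G17170/DAZ1 (849 bp), DAZ1 being a zinc finger factor of pollen, and at AT1G06560/PDS1 (749 bp), PDS1 being a dioxygenase of plastoquinone synthesis. AT3G43490/AT3G43500 followed with 676 bp. The last 500 bp of AT2G17170 also held 250 bp of H3K4me1, whereas the AT3G43490/AT3G43500 window had no base of any other target.

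H3K27ac lay over 1095 bp at AT1G26220/Cpn60beta4, a chloroplast chaperonin, and H3K4me3 over 586 bp at AT2G43280/MSS3, a calmodulin-like protein, and 565 bp at UBQ6/AT2G47115. In each of these pairs one gene was short, at 722 bp for AT1G26220, 996 bp for MSS3 and 711 bp for UBQ6. Other annotated genes touched the AT1G26220/Cpn60beta4 window (3 genes) and the UBQ6/AT2G47115 window (1 gene). Whether gene length or these other genes bear on the cover was not tested. The UBQ6 end also had 316 bp of H3K27ac and 349 bp of H3K27me3. All 6 targets reached 100 bp at only 4 pairs, AT1G06260/AT1G06270, NATA1/AT2G39040, AT3G21405/AT3G21410 and CP33/AT3G52390. The longest overlap was that of the germin-like gene GLP8 with AT3G05935, with 239 bp of H3K27ac. At the median distance, an overlap of 2 bp, lay 22 pairs, of which 11 had at least 100 bp of H3K4me1 and 7 had that much of no target, beside 32.4% and 33.1% of all convergent windows. TT4, chalcone synthase, with AT5G13940 was one of them, with 593 bp of H3K4me1.

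Among 20 genes of the hair and non-hair fates of root epidermis, 4 had convergent ends, beside 30.2% of all protein-coding genes. GL2, the homeodomain factor of non-hair cells whose promoter drove the tag, had 337 bp of H3K27me3 in its last 500 bp. EXPA7, a root hair expansin, overlapped AT1G12570 by 23 bp, and 411 bp of their window lay under H3K27me3. ETC1, a MYB-related gene of hair patterning, had 137 bp of H2A.Z, and at LRL3, a basic helix-loop-helix gene of root hairs, 317 bp of H3K4me1 lay wholly on the side of AT5G58005. H3K27me3 was thus present at the convergent ends of GL2 and EXPA7 in these nuclei.

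Of 17 shoot, floral and seed regulators 3 were convergent. AGAMOUS (AG), which specifies stamens and carpels, and AT4G18970 had 689 bp of H3K27me3, 189 bp of H3K4me3 and 211 bp of H3. APETALA3 (AP3), of petals and stamens, faced WRI1, a seed oil regulator, with 572 bp each of H3K27me3 and H2A.Z. SHOOT MERISTEMLESS (STM) had 235 bp of H3K27me3 on its own end and none on that of AT1G62350, which had 337 bp of H3K4me1. H3K27me3 reached 100 bp in all 3 windows, beside 14.2% of all convergent windows, and with 3 windows no more is read from it.

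Housekeeping genes gave 2 of 10. UBQ10/AGD13 had no region of any target, and ST4C/GAPC2, with GAPC2 a glyceraldehyde-3-phosphate dehydrogenase, had 1 bp of H3K27me3. Of the known natural antisense pairs, AT4G35850 and GB2, a Rab GTPase, overlapped by 128 bp with 189 bp of H3K4me3 and 179 bp of H3K27ac. KPL and ARI14, a pair known from sperm cells, lay 82 bp apart in this annotation with 643 bp of H3K4me1, 422 bp of H3 and 155 bp of H3K27me3. SRO5 and P5CDH, the pair known from salt stress, overlapped by 905 bp and fell outside the limit.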

How the data were processed

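ChIP-seq regions of 6 targets in nuclei of root non-hair cells, 1 library each, were used as the authors deposited them: chromosome, start and end in base pairs, with no score, count or depth. The submitters' processing notes name HOMER, deepTools 2.0, Bowtie2 and SAMtools 0.1.19, and the build TAIR10. What each tool did, how regions were called and against which control is not given in the sources used here. H3K27me3 had an input of its own, so its preparation and the mark cannot be told apart. Numbers and lengths of regions also depend on depth, which is unknown.

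Genes came from RefSeq TAIR10.1, with extents over all isoforms. No region ended past its chromosome, and 1, 2 and 4 regions outside the nuclear chromosomes were left out for H3K4me3, H3K27me3 and H3. Lists held 14717 to 36146 regions and covered 3.42% to 10.5% of the nuclear sequence, with smallest sizes of 179 to 254 bp. Neighbours were consecutive protein-coding genes by start; nested pairs were left out, and ends were clipped to genes shorter than 500 bp. A window or end was covered at 100 bp or more. Shares carry exact Clopper-Pearson and differences Newcombe 95% intervals, which measure counting error only and treat ends as independent. The distance-weighted difference gave tandem ends the distance classes of convergent ends, with an interval from binomial variances. Centromere flanks, left out in one alternative, reached 3 Mb from rounded centres and are approximate.

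Named pairs were the 3 with the most covered bases and the 3 with the longest bridging region for each target, of which the text gives a part, those with most targets, the longest overlap, those at the median distance, and those holding genes of 4 lists. The rule, members and lists were chosen with earlier results of these data known. Computations used Python 3.11.15, NumPy 2.4.6, pandas 2.3.3 and SciPy 1.17.1, and were tested on simulated regions.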

Additional observations from a re-analysis of the deposited data

How the results depend on the processing

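Differences are in percentage points, convergent minus tandem, and settings chosen after seeing the data are named as such. All alternatives kept the direction for H3K4me1, H3K27ac, H2A.Z and H3, at ends and in windows, and for H3K4me3 and H3K27me3 in windows; the H3K4me3 difference at ends changed sign in 2 of 12, and its interval left 0 only with a minimum of 1 bp (-1.77 to -0.21). The direction turned for H3K27me3 at ends, to 0.23, with tandem ends weighted by distance. That weighting, added later, gave -6.04 for H3K27ac, -3.22 for H2A.Z and 4.44 for H3. It raises the weight of overlapping tandem ends, which include part of the neighbour's start.

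Leaving out regions of the smallest size gave -3.86 for H2A.Z and 1.39 for H3 at ends, and 5.52 for H3K4me1, -17.0 for H3K4me3, -6.76 for H3K27me3, -15.9 for H2A.Z and 1.53 for H3 in windows. Regions of at least 500 bp gave 1.00 for H3K4me1, -0.44 for H3K27ac, -1.17 for H3K27me3, -0.63 for H2A.Z and 0.16 for H3 at ends, and 1.94 for H3K4me1, -2.94 for H3K4me3, -13.2 for H3K27ac, -2.45 for H3K27me3, -2.31 for H2A.Z and 0.17 for H3 in windows. With both genes at least 1500 bp long, ends gave -7.44 for H3K27ac and -7.24 for H2A.Z, and windows -32.1 for H3K4me3, -53.2 for H3K27ac, -13.7 for H3K27me3 and -28.5 for H2A.Z. With 250 bp inside each gene, ends gave -1.31 for H3K27ac and -2.34 for H2A.Z, and windows 3.85 for H3K4me1, -12.5 for H3K4me3, -28.6 for H3K27ac, -6.92 for H3K27me3 and -13.1 for H2A.Z.

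A minimum of 250 bp gave -1.50 for H3K27ac, -1.99 for H2A.Z and 1.30 for H3 at ends, and -11.4 for H3K4me3, -34.8 for H3K27ac, -6.45 for H3K27me3, -12.9 for H2A.Z and 2.57 for H3 in windows. A minimum of 1 bp gave -0.98 for H3K4me3 and -5.03 for H3K27ac at ends, and -27.6 for H3K4me3 and -13.3 for H3K27me3 in windows. Of the settings added later, isolated ends in place of tandem ends gave 9.96 for H3K4me1, -1.72 for H3K27ac, -16.2 for H3K27me3 and -7.22 for H2A.Z. Pairs that do not overlap gave 1.56 for H3K4me1, -2.01 for H3K27ac, -0.28 for H3K27me3 and -3.01 for H2A.Z at ends, and -36.8 for H3K27ac, -6.29 for H3K27me3, -16.9 for H2A.Z and 6.27 for H3 in windows. Windows with no H3 base gave 5.71 for H3K4me1. Beyond what each setting leaves out by construction, the cause of these changes was not tested.

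No paired analysis was possible because each target had 1 library. Sequencing depth is unknown, so absence of a target from a window is absence from its list, and shares of different targets are not amounts of a mark. The caller's threshold is not given in the sources used here, and no other threshold was tried. Ends are annotated ends, not ends measured in these cells.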
